A study of Mus musculus with 9 samples.

Results

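The matrix metalloproteinases (Mmp), the ADAMTS proteases (Adamts) and their tissue inhibitors (Timp) were followed in the thymic stroma of irradiated mice. A gene was taken when a probe set carried its symbol and no other, and when that symbol was Mmp, Adamts or Timp followed by a number, with a or b allowed after it. Of the 18193 genes on the array with a probe set of 1 symbol, 37 were found in this way, on 70 probe sets: 18 Mmp genes, 15 Adamts genes and 4 Timp genes. Each gene was read from its brightest probe set, judged by the mean of the 9 arrays. The rule for the genes used symbols and no measured values.

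Mmp enzymes are secreted or membrane-bound zinc proteases that cut collagens, laminin, fibronectin and other matrix proteins, and they are made as inactive precursors whose propeptide has to be removed. The ADAMTS enzymes are secreted relatives with thrombospondin repeats, many of which cut large proteoglycans such as versican and aggrecan. Timps are small secreted proteins that block the active sites of both families, and in stromal tissues fibroblasts are a main source of several of these genes.

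All mice were female C57BL/6J animals 6 to 8 weeks old, and the material was thymic stroma depleted of CD45+ blood cells with magnetic beads. The 3 groups were untreated mice, mice taken 4 days after a treatment that the labels call SL-TBI (commonly read as sublethal total body irradiation) and mice taken 7 days after it. The dose was 550 cGy from a cesium source, without a transplant of blood-forming cells, and each group had 3 samples on 1 Affymetrix mouse genome array each. Cells of several mice were pooled per sample, the protocol calls the pooled cells ECs without saying what this stands for, and whether replicates were separate pools is not stated. The p-values therefore cover only the spread between these 9 samples, which may be technical.

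Values are the deposited log2 signals, and a level is never set against that of another gene. A gene was tested when it reached a log2 value of 4, taken as the detection level, on at least 3 of the 9 arrays, which 10937 genes did. Differences are on the log2 scale with a standard error (SE), and a gene is called when its adjusted p in 1 limma model over all tested genes is under 0.05. Transcripts of blood cells were present in spite of the depletion: Ptprc, the gene of CD45, read 11.96 to 12.45 in untreated samples, 4.18 to 5.22 at day 4 and 9.26 to 9.64 at day 7. A list of 13 thymocyte genes had array means of 9.13 to 9.65, 3.41 to 3.68 and 6.70 to 6.85 in the same 3 groups. The epithelium list, 13 genes of the cell type that makes up most of the thymic framework, had array means of 9.26 to 10.09. Its genes did not all stay level: against untreated, 5 were higher and 1 lower at day 4, and 4 higher and 6 lower at day 7. Of 11 cortical epithelial genes, 8 were higher at day 4 and 9 at day 7, with 0 lower at either time. Of 7 medullary epithelial genes, 3 were lower at day 4 and 7 at day 7, with 0 higher. Untreated replicate 3 stood apart, with a mean of 5.84 for the endothelium list against 4.07 and 4.30 in the other untreated samples. In bulk samples fewer cells of a type and less RNA per cell cannot be told apart.

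Of the 37 genes, 19 were tested: 7 Mmp, 8 Adamts and 4 Timp genes. The other 18 stayed below the filter and are named only: Mmp1a, Mmp1b, Mmp8, Mmp10, Mmp12, Mmp13, Mmp16, Mmp17, Mmp19, Mmp20, Mmp24, Adamts3, Adamts7, Adamts8, Adamts16, Adamts18, Adamts19 and Adamts20. Their highest values on any array lay between 2.27, the floor of the deposited values, and 4.36, and Mmp19 was the one that passed 4. Mmp1a, Mmp8 and Mmp13, secreted collagenases, were among them. Of the tested genes, 6 reached the detection level on fewer than 3 untreated arrays (Adamts4, Adamts10, Adamts12, Adamts15, Mmp7 and Timp4), and Adamts15 reached it on none, so for such genes the filter favoured those that were high in another group.

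Of the 18 untested genes, 7 belong to a run of Mmp genes that neighbour each other on chromosome 9: Mmp13, Mmp12, Mmp1b, Mmp3, Mmp1a, Mmp10, Mmp8, Mmp20 and Mmp7, in which Mmp27, not among the 37, is the remaining protein-coding gene. Mmp3 and Mmp7 alone of the 9 were tested, and none of the 7 others passed 2.96 on any array. Sequence upstream of the start was available from RefSeq (GRCm38.p6) for 23 of the 37 genes, 12 of them tested. The last 100 bases before the start are printed for Mmp3, which was high after irradiation, and for 4 genes of the run that were dim or, for Mmp7 (shown at 1 of its 2 listed starts), not called. Capitals mark matches to 4 motifs searched on both strands. The AP-1 motif was TGANTCA, which reads the same on either strand. The TATA box was TATAAA, or TTTATA on the other strand. The GC box was GGGCGG, or CCGCCC on the other strand, and the CCAAT box was sought by these letters and by ATTGG, their reverse complement.
Mmp3 (chr9:7445722-7445821, plus strand): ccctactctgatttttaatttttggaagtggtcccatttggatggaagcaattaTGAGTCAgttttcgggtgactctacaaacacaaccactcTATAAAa
Mmp7 (chr9:7691990-7692089, plus strand): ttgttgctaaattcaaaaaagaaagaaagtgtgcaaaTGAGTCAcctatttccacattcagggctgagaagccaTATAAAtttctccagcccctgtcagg
Mmp10 (chr9:7502242-7502341, plus strand): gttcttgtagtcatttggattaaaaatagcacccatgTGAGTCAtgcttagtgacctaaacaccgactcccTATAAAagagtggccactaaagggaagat
Mmp13 (chr9:7272414-7272513, plus strand): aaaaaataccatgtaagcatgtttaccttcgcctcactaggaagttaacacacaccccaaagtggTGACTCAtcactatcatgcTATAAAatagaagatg
Mmp1a (chr9:7464041-7464140, plus strand): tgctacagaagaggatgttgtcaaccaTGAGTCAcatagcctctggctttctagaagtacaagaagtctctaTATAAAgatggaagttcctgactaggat
In Mmp3 the AP-1 match lay 46 to 40 bases before the start and the TATA match 7 to 2 bases before it. Mmp10 and Mmp7 both had their AP-1 match 63 to 57 bases before the start. In the 250 bases before the start, 8 of the 9 genes of the run had an AP-1 match, all but Mmp8, although Mmp12 had it at 1 of its 2 listed starts. A TATA match was present in 7, all of which also had the AP-1 match, and a GC box in 0. Of all 32851 windows of this length, 6.75% held the AP-1 motif, 12.4% the TATA box, 1.21% both, 33.8% the CCAAT box and 32.7% the GC box. The same letters thus stood upstream of Mmp3, which was called, and of Mmp10, Mmp13 and Mmp1a, which stayed near the floor.

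Outside the run, a window was used for 14 of the genes, of which 0 held the AP-1 motif, 1 the TATA box (Adamts1) and 11 the GC box. The same 100 bases follow for 3 genes that were high at both times and fell between them (Mmp11, Mmp14 and Timp2) and for Adamts1 and Timp4, which were high at day 7 and not called at day 4.
Mmp11 (chr10:75932503-75932602, minus strand): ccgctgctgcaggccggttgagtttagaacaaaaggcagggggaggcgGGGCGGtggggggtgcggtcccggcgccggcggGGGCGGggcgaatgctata
Mmp14 (chr14:54431498-54431597, plus strand): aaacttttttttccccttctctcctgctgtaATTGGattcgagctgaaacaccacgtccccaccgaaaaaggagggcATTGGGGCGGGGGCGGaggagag
Timp2 (chr11:118355412-118355511, minus strand): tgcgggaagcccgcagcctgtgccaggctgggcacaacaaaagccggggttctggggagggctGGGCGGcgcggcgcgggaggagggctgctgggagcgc
Adamts1 (chr16:85803114-85803213, minus strand): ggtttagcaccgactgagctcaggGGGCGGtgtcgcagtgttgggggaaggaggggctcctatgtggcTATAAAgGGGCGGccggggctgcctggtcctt
Timp4 (chr6:115252206-115252305, minus strand): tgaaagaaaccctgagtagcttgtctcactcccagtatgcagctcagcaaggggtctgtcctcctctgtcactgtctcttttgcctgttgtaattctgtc
Mmp11, Mmp14 and Adamts1 each showed 2 GC boxes here, and in Mmp14 a CCAAT box on the reverse strand overlapped the first. Timp4 had 0 matches in these 100 bases. A match is a description of the letters and not of a bound factor.

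At day 4, transcripts of the gelatinase Mmp2, the stromelysins Mmp3 and Mmp11, the membrane-type Mmp14, and Mmp23 were all at least 3.13-fold higher than in untreated stroma, as were the proteoglycan-cutting Adamts5 (3.70-fold) and its relative Adamts12 (3.94-fold). Timp1 was 2.60-fold and Timp2 3.0-fold higher. Of the 19 tested genes, 12 were called higher and 0 lower, where 41.8% of all tested genes were higher, 21.4% lower and 63.2% called in either direction. The median difference of the 19 was 1.38, against 0.20 over all tested genes. The share called in either direction, 12 of 19, was that of all genes, and the direction was 1-sided on the deposited scale. Among the 12 are Adamts12 and Adamts15, which reached the detection level on 1 and 0 untreated arrays. The filter favoured this direction for them. With each array centred on 13 fibroblast genes, which takes the same amount from every gene, 5 of the 19 were higher and 8 lower, where 196 of all 10937 genes were higher and 8740 lower.

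At day 7, 14 of the 19 were called higher than in untreated stroma and 0 lower, against 32.1% and 22% of all tested genes (54.1% in either direction). Of these 14, Adamts4, Adamts12, Adamts15 and Timp4 reached the detection level on fewer than 3 untreated arrays. The filter favoured this direction for them too. The median difference of the 19 was 1.08, against 0.09 over all tested genes. Between day 7 and day 4, 4 were higher at day 7 (Adamts1, Adamts4, Timp3 and Timp4) and 8 lower, against 9.78% and 17.6% of all tested genes (27.3% in either direction). The medians were −0.38 for the 19 and −0.10 for all. The comparisons share their samples, so they are not independent of each other. The called genes fell into a few time patterns. A set of 7 genes was higher at both times and lower at day 7 than at day 4: Mmp2, Mmp3, Mmp11, Mmp14, Adamts5, Adamts15 and Timp2. For 4 of them the call between day 7 and day 4 was lost with arrays centred on the epithelium list, where Mmp2 was at −0.44 (adjusted p = 0.18), Mmp14 at −0.47 (0.13), Adamts5 at −0.33 (0.33) and Timp2 at −0.29 (0.38). The same 4 lost it on the fibroblast list, at −0.41 (adjusted p = 0.25), −0.43 (0.22), −0.29 (0.40) and −0.25 (0.48). Mmp23, Adamts9 and Adamts12 were higher at both times with no call between them, and Adamts1, Adamts4 and Timp4 were called higher at day 7 but not at day 4. Timp1 was higher at day 4 and not called at day 7, Timp3 was higher at both times and further up at day 7, and Mmp7, Mmp9, Adamts6 and Adamts10 were not called.

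**Figure D1:**
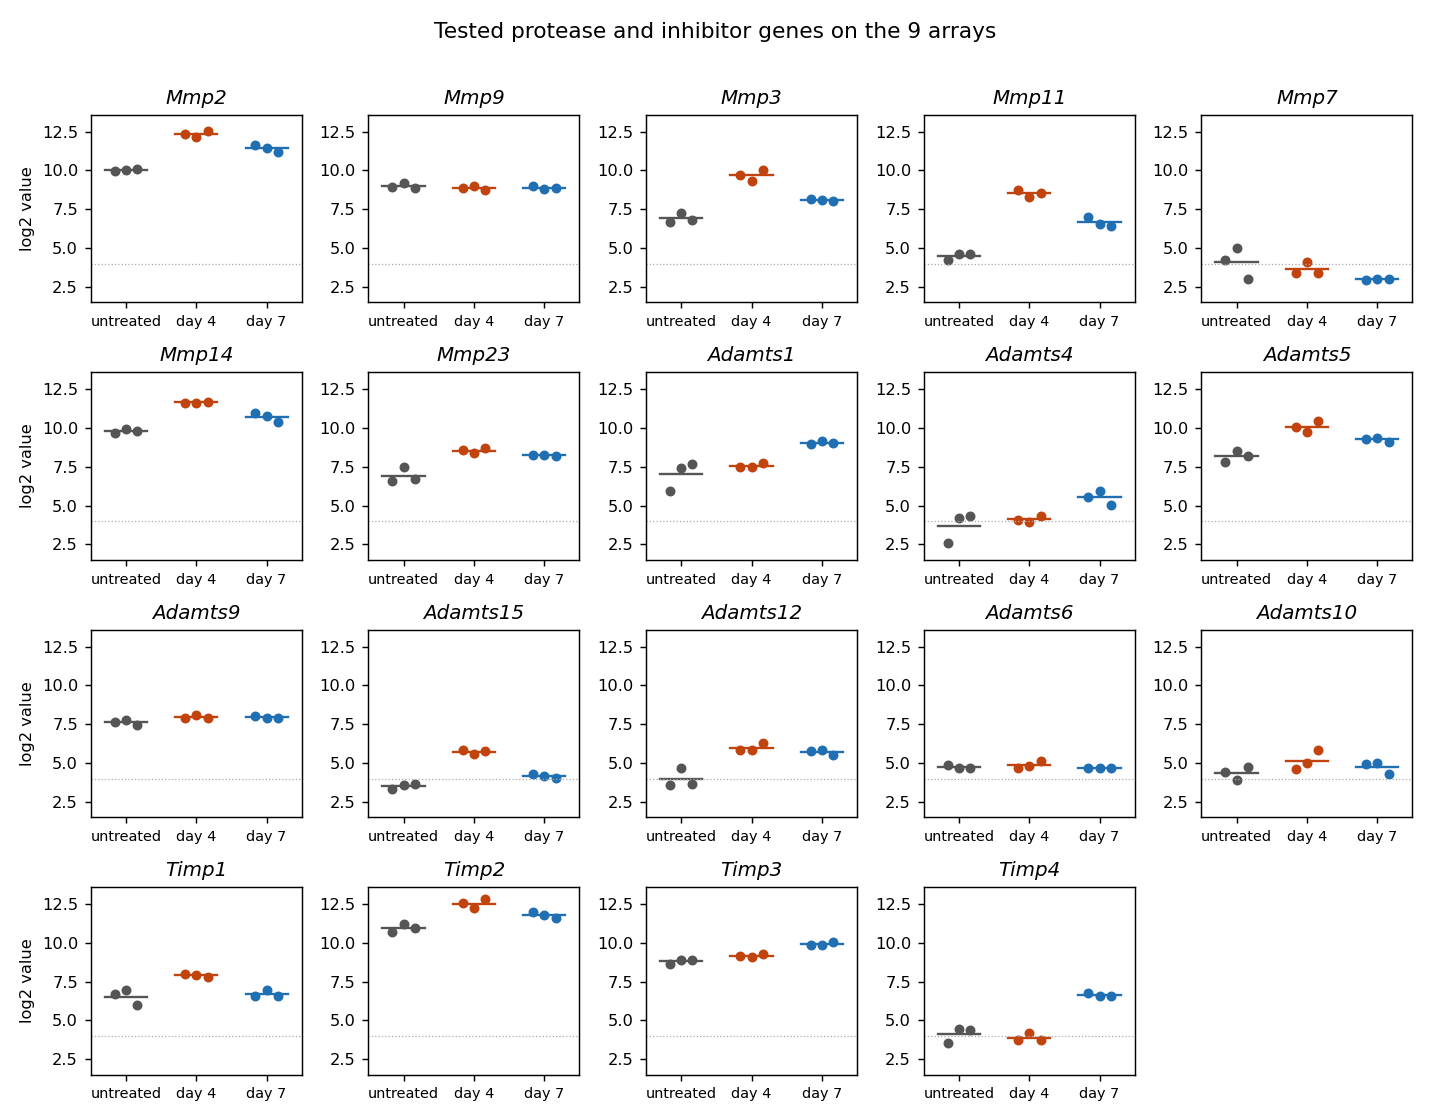
Log2 value of the 19 tested genes on each of the 9 arrays, by group (untreated, day 4, day 7); points are arrays, bars group means, and the dotted line is the detection level of 4. In Mmp11 the day 4 arrays lie at 8.29 to 8.76, above the day 7 arrays at 6.44 to 7.00 and the untreated ones at 4.26 to 4.63, whereas in Timp4 the day 7 arrays at 6.56 to 6.74 stand above both other groups.

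Mmp11, also called stromelysin-3, is a protease known from fibroblasts of remodelling tissue that is activated by furin inside the cell. It read 4.26, 4.63 and 4.63 in untreated samples, 8.76, 8.29 and 8.56 at day 4, and 7.00, 6.54 and 6.44 at day 7. The groups did not overlap, and its untreated values were just above the detection level. The difference was 4.03 at day 4 (SE 0.18, adjusted p = 4.2e-07), or 16.3-fold, the largest of the 19 genes. At day 7 it was 2.15 above untreated (adjusted p = 4.6e-05) and 1.88 below day 4 (−1.88, adjusted p = 0.00023), so 53.5% of the day 4 difference was left on the log2 scale. It was called in each comparison under every alternative run.

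Mmp3, stromelysin-1, cuts many matrix proteins and activates other proMmps. It read 6.68, 7.25 and 6.84 in untreated samples, 9.72, 9.33 and 10.00 at day 4 and 8.18, 8.12 and 8.03 at day 7. Each day 4 array lay above each day 7 array, and those above each untreated one. The day 4 difference was 2.76 (SE 0.19, adjusted p = 4.9e-06), 6.78-fold. At day 7 it was 1.19 (adjusted p = 0.00087), 2.28-fold, with 43.0% of the day 4 difference left.

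Mmp2, or gelatinase A, cuts denatured collagen and type IV collagen, and Mmp14, a membrane-bound protease, activates proMmp2 at the cell surface together with Timp2. Mmp2 read 9.94, 10.00 and 10.06 in untreated samples, 12.32, 12.14 and 12.57 at day 4 and 11.64, 11.44 and 11.20 at day 7. Mmp14 read 9.65, 9.94 and 9.81, then 11.62, 11.62 and 11.70, then 10.97, 10.74 and 10.39 in the same groups. In both genes the 3 groups were fully apart, in the order untreated, day 7, day 4. At day 4 Mmp2 was 5.07-fold higher (2.34, SE 0.14, adjusted p = 2.3e-06). Mmp14 was 3.60-fold higher (1.85, SE 0.14, adjusted p = 1.1e-05). At day 7 the differences from untreated were 1.42 for Mmp2 (adjusted p = 8.8e-05) and 0.90 for Mmp14 (adjusted p = 0.00096). The partner in that activation, Timp2, followed the same order and is described with the inhibitors.

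Mmp9, the other gelatinase, is typical of neutrophils and macrophages and was not called. Its means were 9.0 ± 0.16 in untreated samples, 8.89 ± 0.14 at day 4 and 8.89 ± 0.09 at day 7 (SD, n = 3 each). The differences from untreated were −0.11 at both times (SE 0.11, adjusted p = 0.42 at day 4 and 0.43 at day 7). A neutrophil list of 7 tested genes had 1 of them higher and 5 lower at day 4 and 0 higher and 6 lower at day 7, with array means of 6.29 to 8.01 in untreated samples, 5.42 to 5.86 at day 4 and 4.35 to 4.67 at day 7, and Elane was not detected. The macrophage list had 6 of 11 genes dim (Adgre1, Cd68, C1qa, C1qc, Timd4 and Itgam), 1 higher and 2 lower at each time, and means of 4.94 to 5.69 over all arrays. Their part in the Mmp9 level was not tested.

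Mmp23, a short Mmp anchored by its own propeptide region, read 6.56, 7.46 and 6.68 in untreated samples, 8.56, 8.37 and 8.70 at day 4 and 8.27, 8.28 and 8.21 at day 7. Untreated replicate 2 was the highest of its group and still below all irradiated samples. The differences were 1.64 at day 4 (SE 0.21, adjusted p = 0.00018) and 1.35 at day 7 (adjusted p = 0.00082), with 82.3% of the day 4 difference left. Mmp7, matrilysin, an epithelial protease, had means of 4.10 ± 1.0 in untreated samples, 3.63 ± 0.38 at day 4 and 2.99 ± 0.03 at day 7 (SD, n = 3 each). At day 7 it was below the detection level on every array, and its untreated samples spread from 3.04 to 5.03. The day 7 difference of −1.11 (SE 0.42, adjusted p = 0.051) missed the threshold. It passed with the replicate block (adjusted p = 0.028), array weights (0.0025), an intensity trend (0.046) and centring on the tested genes (0.039) or the epithelium list (0.037). Without untreated replicate 3, at 3.04, Mmp7 was called lower at day 7 (−1.64, adjusted p = 0.0015) and at day 4 (−1.0, adjusted p = 0.012). The same replicate was lowest in a list of 7 medullary epithelial genes, at 6.57 against 7.94 at most in untreated samples, a list that stood at 6.47 to 6.89 at day 4 and 5.73 to 5.87 at day 7. Its part in the Mmp7 level was not tested.

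The Adamts genes split by time. Adamts5, the main aggrecan-cutting enzyme of mouse cartilage and also a versican-cutting one, read 7.82, 8.54 and 8.18 in untreated samples, 10.05, 9.72 and 10.42 at day 4, and 9.30, 9.38 and 9.10 at day 7. Adamts15, another versican-cutting enzyme, read 3.30, 3.60 and 3.63, then 5.84, 5.59 and 5.79, then 4.32, 4.13 and 4.05. In both, day 4 was highest and untreated lowest with no overlap, and Adamts15 was below the detection level in all untreated samples. Adamts5 differed by 1.89 at day 4 (SE 0.21, adjusted p = 8.7e-05) and 1.08 at day 7 (adjusted p = 0.0028). Adamts15 differed by 2.23 (SE 0.12, adjusted p = 1.6e-06), at least 3.33-fold, at day 4. At day 7 its difference was 0.66 (adjusted p = 0.0022), at least 1.12-fold. The decline of Adamts5 between day 4 and day 7 (−0.81, adjusted p = 0.024) was a weak call: without day 4 replicates 1 or 3, or any 1 day 7 replicate, its adjusted p was between 0.055 and 0.079.

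Adamts12, which cuts the cartilage protein COMP, read 3.60, 4.71 and 3.66 in untreated samples, 5.81, 5.82 and 6.28 at day 4 and 5.80, 5.87 and 5.54 at day 7. The irradiated groups overlapped each other and lay above untreated. The differences were 1.98 at day 4 (SE 0.28, adjusted p = 0.0003) and 1.74 at day 7 (adjusted p = 0.00094), and 1 of the 3 untreated arrays reached the detection level. Adamts9, a secreted enzyme that cuts versican and aggrecan, had means of 7.62 ± 0.14 in untreated samples, 7.98 ± 0.10 at day 4 and 7.94 ± 0.08 at day 7 (SD, n = 3 each). It differed by 0.36 at day 4 (adjusted p = 0.012) and 0.32 at day 7 (adjusted p = 0.024). Its second tested probe set disagreed, with −0.05 (adjusted p = 0.80) at day 4 and −0.26 (adjusted p = 0.25) at day 7, and the day 7 call was lost without untreated replicates 1 or 3 and without day 7 replicates 1 or 3 (adjusted p = 0.054 to 0.079). The direction of Adamts9 is therefore not settled by the array.

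Adamts1, a versican-cutting enzyme that is also known to restrain vessel growth, read 5.94, 7.40 and 7.68 in untreated samples, 7.51, 7.51 and 7.72 at day 4 and 8.96, 9.15 and 9.02 at day 7. Adamts4, an aggrecan-cutting relative, read 2.56, 4.18 and 4.33, then 4.05, 3.93 and 4.34, then 5.57, 5.95 and 5.06. In both genes the day 7 samples lay above all others, day 4 overlapped untreated, and untreated replicate 1 was the lowest array. At day 7 Adamts1 was 4.10-fold higher than untreated (2.04, SE 0.37, adjusted p = 0.0019). Adamts4 was 3.58-fold higher (1.84, SE 0.43, adjusted p = 0.0063). The day 4 differences of 0.57 (SE 0.37, adjusted p = 0.21) for Adamts1 and 0.42 (SE 0.43, adjusted p = 0.42) for Adamts4 were not called, although they were with arrays weighted by their scatter (1.32, adjusted p = 0.0037, and 1.21, adjusted p = 0.014). Day 7 was also above day 4, by 1.47 for Adamts1 (adjusted p = 0.02) and 1.42 for Adamts4 (adjusted p = 0.039), but the adjusted p was between 0.05 and 0.068 for Adamts1 without day 4 replicates 1 or 2 or any 1 day 7 replicate, and between 0.065 and 0.13 for Adamts4 without any 1 day 4 replicate or day 7 replicates 1 or 2.

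The remaining Adamts genes were not called. Adamts6 had means of 4.73 ± 0.14 in untreated samples, 4.88 ± 0.25 at day 4 and 4.65 ± 0.00 at day 7 (SD, n = 3 each), and its probe set was listed at its lowest value of 4.65 on 6 of the 9 arrays. Adamts10, an enzyme tied to fibrillin microfibrils, had means of 4.35 ± 0.42, 5.13 ± 0.62 and 4.75 ± 0.38 in the same groups, and its day 4 difference of 0.79 (SE 0.33, adjusted p = 0.066) missed the threshold. Without untreated replicate 3 that difference was 0.98 (adjusted p = 0.045), and without day 4 replicate 1 it was 1.05 (adjusted p = 0.028).

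**Figure D2:**
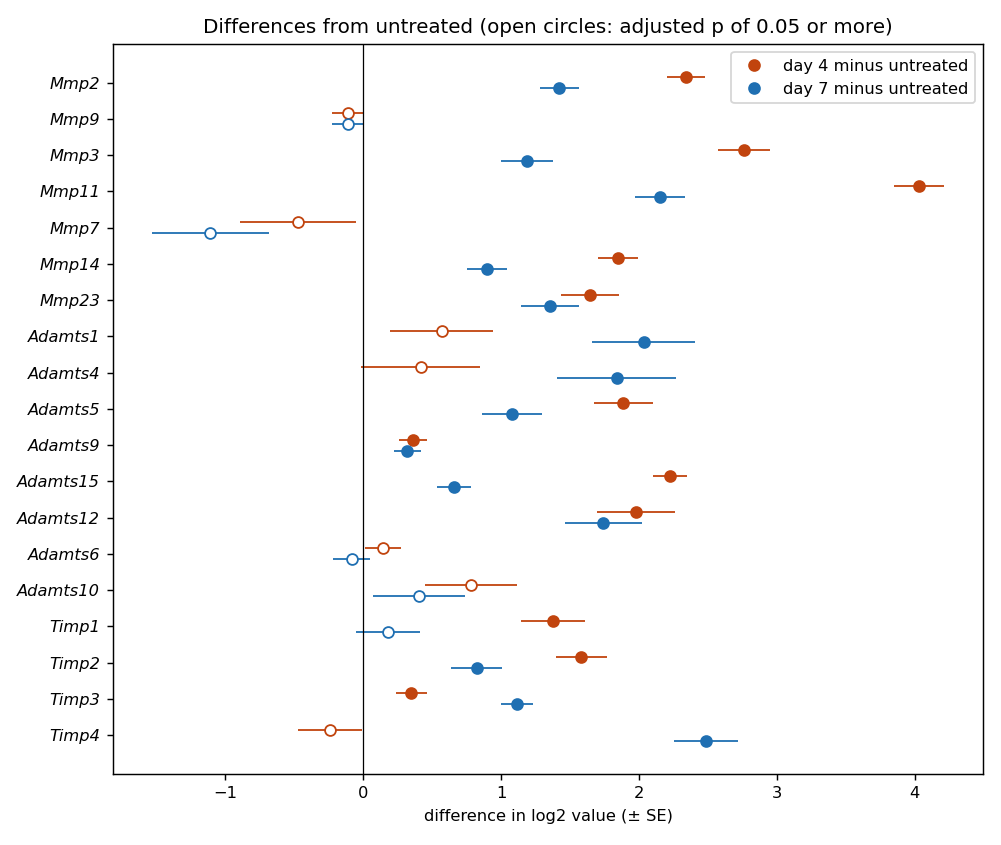
Difference in log2 value from untreated for the 19 tested genes at day 4 and day 7, with SE bars; filled circles have a limma adjusted p under 0.05. Day 4 exceeds day 7 for Mmp2, Mmp3, Mmp11 and Mmp14, while for Adamts1, Adamts4, Timp3 and Timp4 day 7 exceeds day 4; with arrays centred on the fibroblast list, Adamts1, Adamts4, Adamts6, Adamts9, Adamts10, Timp1 and Timp3 turn negative at day 4, and Adamts9, Adamts10, Adamts15, Timp1 and Timp2 at day 7.

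The 4 inhibitors peaked at different times. Timp1, which blocks most secreted Mmps, read 6.70, 6.95 and 5.97 in untreated samples, 7.98, 7.95 and 7.82 at day 4 and 6.60, 6.99 and 6.56 at day 7. The day 4 samples lay above all others, and day 7 overlapped untreated. It differed by 1.38 at day 4 (SE 0.23, adjusted p = 0.00078), and at day 7 by 0.18 from untreated (SE 0.23, adjusted p = 0.53) and by −1.20 from day 4 (adjusted p = 0.0064). Centred on the fibroblast list, its day 4 difference was −0.02 (adjusted p = 0.95).

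Timp2, which inhibits Mmps and also bridges proMmp2 to Mmp14, read 10.68, 11.23 and 10.93 in untreated samples, 12.54, 12.24 and 12.82 at day 4 and 11.97, 11.77 and 11.59 at day 7. The 3 groups did not overlap. It differed by 1.58 at day 4 (SE 0.18, adjusted p = 1e-04) and by 0.82 at day 7 (adjusted p = 0.0052), leaving 52.0% of the day 4 difference. For Mmp2 and Mmp14, its partners at the cell surface, 60.8% and 48.7% were left. The step from day 4 to day 7 (−0.76, adjusted p = 0.017) lost its call without day 4 replicates 1 or 3 or day 7 replicates 2 or 3 (adjusted p = 0.05 to 0.06).

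Timp3 is bound to the matrix and inhibits several ADAMTS and ADAM proteases besides Mmps. It read 8.65, 8.92 and 8.91 in untreated samples, 9.14, 9.07 and 9.31 at day 4 and 9.88, 9.86 and 10.08 at day 7. Each later group lay above the earlier one. The day 7 difference was 1.12 (SE 0.11, adjusted p = 0.00011), and day 7 was 0.77 above day 4 (adjusted p = 0.0021). The small day 4 difference of 0.35 (SE 0.11, adjusted p = 0.024) was not called without untreated replicate 1 (adjusted p = 0.088) or day 4 replicate 3 (adjusted p = 0.084). It was also not called when its probe sets were averaged (0.30, adjusted p = 0.051) or centred on the tested genes (0.24, adjusted p = 0.094) or the epithelium list (0.30, adjusted p = 0.34), and on the fibroblast list it was −1.05 (adjusted p = 0.00058).

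Timp4, known mainly from heart, vessels and fat, read 3.57, 4.45 and 4.41 in untreated samples, 3.73, 4.20 and 3.77 at day 4 and 6.74, 6.56 and 6.58 at day 7. Untreated and day 4 samples straddled the detection level and overlapped, and all day 7 samples were above it. The difference was 2.49 at day 7 (SE 0.23, adjusted p = 6.9e-05), 5.60-fold, and −0.24 at day 4 (SE 0.23, adjusted p = 0.39). Day 7 was above day 4 by 2.73 (adjusted p = 1e-04), and 1 of the 3 day 4 arrays reached the detection level. Without untreated replicate 1 the day 4 difference was called lower (−0.53, adjusted p = 0.02). Timp1, Timp3 and Timp4 lie inside the synapsin genes Syn1, Syn3 and Syn2, and Timp2 in no synapsin gene. Syn1 and Syn2 reached at most 2.28 and 3.29 on any array. Syn3, the host of Timp3, read 2.41 to 2.55 in untreated samples, 3.33 to 4.05 at day 4 and 4.01 to 4.49 at day 7. Like Timp3 it was lowest in untreated samples, but there Syn3 lay near the floor of 2.27. It reached the detection level on irradiated arrays only, so little can be read from this likeness.

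More than 1 tested probe set was available for some of the called genes. At day 4, 12 of 13 further probe sets of 7 called genes went the same way and 11 of them were called. At day 7 it was 13 of 14 further probe sets of 8 genes, all 13 called, and between day 7 and day 4 it was 12 of 12 of 6 genes, 9 of them called. The exception at both times was Adamts9.

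Marker genes of several cell types also differed between the groups. The largest day 4 medians among the marker lists were those of dividing cells (−5.78), thymocytes (−5.74) and erythroid cells (−3.38, Hba-a1 dim). All their 7, 13 and 3 tested genes were lower at day 4. At day 7 the medians were −1.84, −2.71 and −2.25, with 7, 13 and 2 genes lower. The fibroblast list of 13 genes, the collagen-making cells of the thymic capsule and septa, had 13 genes called higher at day 4 and 10 at day 7, with array means of 9.63 to 10.21 in untreated samples, 11.05 to 11.62 at day 4 and 10.58 to 10.90 at day 7. The endothelium list had 15 tested genes, 6 of them higher at day 4, 15 at day 7 and 12 higher at day 7 than at day 4; its means were 4.07 to 5.84 in untreated samples, 5.16 to 5.92 at day 4 and 7.50 to 7.56 at day 7, and Tie1 was dim. The pericyte and smooth muscle list stood at 7.26 to 7.59, 7.33 to 7.60 and 8.18 to 8.87, with Cspg4 and Cnn1 dim. Of its 9 tested genes, 3 were higher and 3 lower at day 4, and 4 higher and 0 lower at day 7. Between day 7 and day 4, 6 were higher and 1 lower. The mesothelium list, for the lining of the organ surface, had 5 of 6 genes higher at each time and means of 6.14 to 6.56, 7.18 to 7.63 and 7.71 to 8.27. Of the adipocyte list, 3 genes were tested (Cidec, Lep and Retn were dim), with 1 higher at each time and means of 6.47 to 6.76, 7.21 to 10.0 and 7.08 to 8.83. The cortical epithelium list stood at 10.44 to 10.62, 10.98 to 11.09 and 11.15 to 11.23. The endothelium, pericyte, mesothelium and cortical epithelium lists had their highest means at day 7, where Adamts1, Adamts4, Timp3 and Timp4 were highest. The mesothelium and cortical lists were already up at day 4, where Adamts1, Adamts4 and Timp4 were not called. Between day 7 and day 4, 1 mesothelium gene was higher and 0 lower, and 3 cortical genes were higher and 2 lower. The fibroblast list was highest at day 4, as were Mmp2, Mmp3, Mmp11, Mmp14 and Timp2. The part of these cells in the results was not tested. The 3′ minus 5′ value of the Actb control probe sets, a sign of RNA quality, was 2.16 to 2.45 in untreated samples, 3.01 to 3.32 at day 4 and 2.30 to 2.71 at day 7. For Gapdh it was 0.80 to 1.04, 1.13 to 1.61 and 0.68 to 1.10 in the same groups. Both controls were thus highest at day 4 with no overlap, and the part of RNA quality was not tested either.

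**Figure D3:**
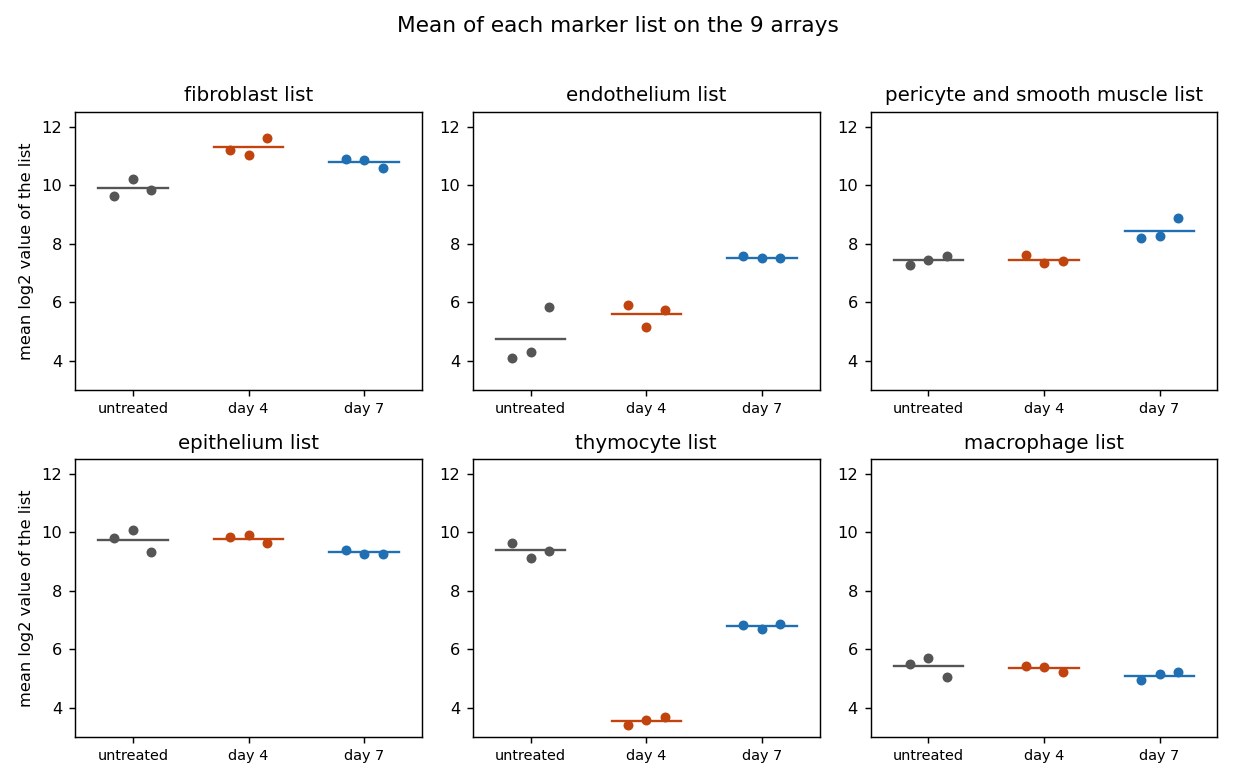
Mean log2 value of 6 marker lists on each of the 9 arrays, by group; points are arrays and bars group means. The fibroblast list is highest at day 4 (11.05 to 11.62), the endothelium list at day 7 (7.50 to 7.56), and the thymocyte list lowest at day 4 (3.41 to 3.68).

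Some of the genes moved further than the fibroblast list and others less. The list's mean shifted by 1.40 at day 4 and 0.88 at day 7. With each array centred on it and the model refitted, Mmp11 (2.63), Mmp3 (1.37), Mmp2 (0.95), Adamts15 (0.83) and Adamts12 (0.58) were still called higher at day 4. Mmp14 (0.45, adjusted p = 0.11), Adamts5 (0.49, adjusted p = 0.081), Mmp23 (0.25, adjusted p = 0.38) and Timp2 (0.19, adjusted p = 0.51) were not called on that scale. Called lower were Adamts1, Adamts4, Adamts6, Adamts9, Mmp7, Mmp9, Timp3 and Timp4, between −0.83 and −1.87. Adamts6 stood at its lowest listed value on 6 of the 9 arrays, all day 7 arrays included. As deposited it differed by only 0.15 at day 4 and −0.08 at day 7, so its lower calls come from the subtracted shift. Mmp7, Timp4 and Adamts4 had day 4 means of 3.63, 3.90 and 4.10, around the detection level. At day 7, Timp4 (1.60), Mmp11 (1.27), Adamts1 (1.15), Adamts4 (0.96) and Adamts12 (0.86) were called higher and Mmp7, Mmp9, Adamts6 and Timp1 lower, between −0.70 and −1.99. Of all genes 346 were higher and 6940 lower on that scale at day 7. Mmp2 (0.54, adjusted p = 0.069), Mmp23 (0.47, adjusted p = 0.11), Mmp3 (0.30, adjusted p = 0.30), Timp3 (0.23, adjusted p = 0.44), Adamts5 (0.20, adjusted p = 0.51) and Mmp14 (0.02, adjusted p = 0.96) were not called there. Mmp11 and Adamts12 were the genes called higher at both times on both scales.

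**Figure D4:**
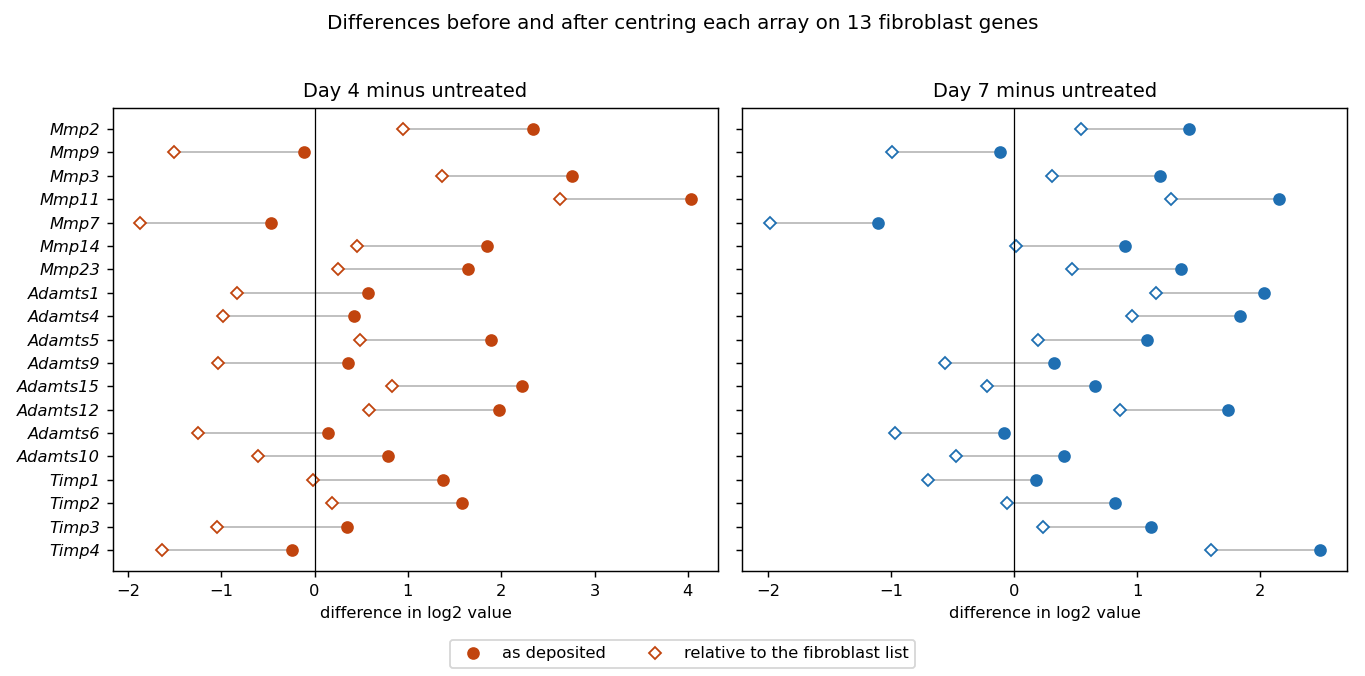
Difference in log2 value from untreated at day 4 (left) and day 7 (right) for the 19 tested genes, as deposited (filled circles) and after centring each array on 13 fibroblast genes (open diamonds). Mmp11 stays at 2.63 at day 4 and 1.27 at day 7, while at day 4 Adamts1, Adamts4, Adamts6, Adamts9, Adamts10, Timp1 and Timp3 and at day 7 Adamts9, Adamts10, Adamts15, Timp1 and Timp2 change sign.

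Genes that act on these proteases, or that they act on, were read from 4 further lists. Among activators and inhibitors of matrix proteases, 12 of 17 tested genes were higher and 2 lower at day 4 (median 0.81), and 9 were higher and 3 lower at day 7 (median 0.45), against 41.8% higher and 21.4% lower over all tested genes at day 4 and 32.1% and 22% at day 7. The largest called differences at day 4 were those of Pcsk6 (2.37) and Pcsk5 (1.53), proprotein convertases that remove propeptides, and of Lrp1 (2.23), the endocytic receptor that clears Mmps and Timps from the cell surface. At day 7 they were Serpinb2 (−2.04), an inhibitor of plasminogen activators, Pcsk6 (1.71) and Lrp1 (1.52). Plg, the gene of plasminogen, was among the 7 dim genes of the list.

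The ADAM genes are relatives of which many are membrane-anchored and shed surface proteins. Of 10 tested, 4 were higher and 1 lower at day 4, and 3 were higher and 4 lower at day 7, with medians of 0.28 and −0.21. Over all tested genes, 41.8% were higher and 21.4% lower at day 4, and 32.1% and 22% at day 7. The shares called higher were thus close to those of all tested genes, and the share lower at day 7 was larger. Between day 7 and day 4, 0 of the ADAM genes were higher and 6 lower, against 9.78% and 17.6% of all tested genes. The largest called differences at day 4 were Adam28 (2.84), Adamdec1 (1.48) and Adam23 (0.87), and at day 7 Adam8 (−1.73), Adam28 (1.58) and Adam12 (−0.69). Adam23 reached the detection level on 1 untreated array and 0 day 7 arrays, so the filter favoured its day 4 call. The ADAMTS-like genes encode matrix proteins built like ADAMTS enzymes but without the protease part. Of 4 tested, 4 were higher at day 4 and 3 at day 7, against 41.8% and 32.1% of all tested genes. Their medians were 1.29 and 0.81. Adamtsl1 (1.73 and 1.58) and Adamtsl4 (1.58 and 0.66) were higher at both times, Adamtsl3 (1.0) was called at day 4, and Thsd4 (0.95 at day 7) codes for a protein that binds fibrillin. Thsd4 read 2.78 to 3.32 in untreated samples, below the detection level on each array, so the filter favoured its being higher. Its bounds were at least 1.09-fold at day 4 and 1.06-fold at day 7.

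Of 13 tested genes in the substrate list, 9 were higher and 1 lower at day 4 (median 1.10) and 11 higher and 0 lower at day 7 (median 0.96). Over all tested genes, 41.8% and 32.1% were called higher. The 13 include Has2, a hyaluronan synthase and not a substrate, which was not called at either time. Col1a1, Col1a2 and Col3a1 are also in the fibroblast list, and Vwf is in the endothelium list. At day 4 the largest were Thbs2 (2.16), a matrix thrombospondin known to help clear Mmp2, Eln (1.79), the gene of elastin, and Fn1 (1.60), that of fibronectin. At day 7 they were Vwf (2.52), the endothelial clotting protein, Thbs2 (1.57) and Vcan (1.56), the versican gene whose product Adamts1, Adamts4, Adamts5, Adamts9 and Adamts15 cut. The proteoglycan genes Acan, Bcan and Ncan, and Col2a1 and Comp, were dim. The medians over all tested genes were 0.20 at day 4 and 0.09 at day 7, and a substrate transcript does not show whether the protein was cut.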

How the data were processed

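The authors deposited 1 log2 value per probe set and array, and GCRMA is the tool named for it, per the submitters' processing notes. GCRMA corrects the background by probe sequence and normalizes the arrays. Neither version nor settings of it are given in the sources used here. The values themselves show the log base, and the normalization was kept. Between 26.1% and 27.2% of an array's values lay at the floor of 2.27, which compresses differences there.

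Of 45101 probe sets, 64 were controls, 34945 carried 1 symbol, 932 several and 9160 none. RefSeq gene IDs matched 34741, which changed 0 symbols, and all 37 of the described genes. Of 18193 genes, 10937 passed the filter and 7256 were dim. All 9 arrays entered 1 model with group as its term, in limma 3.58.1 (lmFit, eBayes; R 4.3.3), checked on simulated data, with Benjamini-Hochberg adjustment over all tested genes. A fold against a group below 4 on every array is a bound computed from that level. Precision is limited by the number of arrays. The genes and lists were chosen with earlier results of these data known. All values on each array are given for genes called with a difference of at least 1 and for each Timp. From each of the 4 further lists, the 3 largest called differences from untreated are named. Alternatives changed the filter, probe set rule, scaling, variance model, arrays and replicate block.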

Additional observations from a re-analysis of the deposited data

How the results depend on the processing

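Among 21 alternatives, the differences called in either setting changed direction only with arrays centred on the fibroblast list. There, at day 4 against untreated, Adamts1 was −0.83, Adamts4 −0.98, Adamts6 −1.25, Adamts9 −1.04, Timp1 −0.02 and Timp3 −1.05, and at day 7 against untreated Adamts15 was −0.22, Adamts9 −0.56, Timp1 −0.70 and Timp2 −0.06. This centring moves all genes by construction: their median became −1.20 at day 4, −0.79 at day 7 and 0.41 between day 7 and day 4, against 0.20, 0.09 and −0.10 as deposited. Centred on the epithelium list the medians were 0.14, 0.51 and 0.37. The share of called genes that were higher was 66.1%, 59.3% and 35.8% as deposited in these 3 comparisons, 2.19%, 4.75% and 89.9% centred on the fibroblast list, 63.1%, 84.4% and 87.9% on the epithelium list, and 57.8%, 56.2% and 47.5% on the tested genes. For the 19 genes, that share was 100%, 100% and 33.3% as deposited, 38.5%, 55.6% and 57.1% on the fibroblast list, and 100% and 93.8% at day 4 and day 7 on the epithelium list, with 4 higher and 4 lower between day 7 and day 4. After quantile normalization it was 46.0% of all called genes between day 7 and day 4.

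Centred on the fibroblast list, 5 of the 19 were higher and 8 lower at day 4 (196 and 8740 of all genes). At day 7, 9 were called, 5 higher and 4 lower (346 and 6940 of all genes). Between day 7 and day 4, 7 were called, of which 3 were lower (1990 of all genes called, 1790 higher and 200 lower). Centred on the epithelium list, 2921 genes were higher at day 4 and 960 lower at day 7, and between day 7 and day 4 there were 4 of the 19 lower, 2128 genes higher and 294 lower. With the epithelium list or the tested genes as centre, an intensity trend, array weights or the replicate block, 1 of the 19, Mmp7, was lower at day 7. Without the filter, 2 of the 19 were higher at day 7 than at day 4 and 1280 genes were lower, and with array weights 2992 were lower. Without it, the dim Adamts7 (0.20), Mmp16 (0.25) and Mmp19 (0.83) were called at day 4, and Adamts7 (−0.20) between day 7 and day 4.

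Leaving out 1 array at a time, the 19 genes gave 11 to 14 calls at day 4 (11 to 13 higher, 0 to 1 lower), 13 to 14 at day 7 (13 to 14 higher, 0 to 1 lower) and 8 to 12 between day 7 and day 4 (2 to 4 higher, 6 to 8 lower). All genes gave 6093 to 6976 calls at day 4 (4096 to 4604 higher, 1988 to 2372 lower). At day 7 they gave 4753 to 6159 (2845 to 3696 higher, 1908 to 2463 lower), and between day 7 and day 4 1760 to 3464 (750 to 1214 higher, 1010 to 2273 lower). Between day 7 and day 4, 2 of the 19 were higher without day 4 replicates 1 or 2 or day 7 replicates 1 or 2. There, 1198 and 1139 genes were lower without day 4 replicates 1 and 2, and 1266, 1010 and 1279 without day 7 replicates 1, 2 and 3. The fewest calls in all, 1905 and 1760, came without day 4 replicate 2 and day 7 replicate 2. The lone calls lower were Timp4 without untreated replicate 1 and Mmp7 without untreated replicate 3. The cause was not tested.

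The replicate numbers of the labels did not pair the samples, since same-numbered arrays had correlations of their deviations from −0.118 to 0.183. With the replicate block, 12, 15 and 12 of the 19 genes and 6669, 5588 and 2614 of all genes were called in the 3 comparisons.

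As limits, 18 of the 37 genes were too dim to test, mouse pools and replicates are not described further, and an array signal says nothing of protease protein, activation or activity. Genes near the floor have compressed differences. Several marker lists differed between irradiated and untreated samples.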

Other observations

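Mmp19, a dim gene, was the untested gene nearest to the detection level: it reached a log2 value of 4 on 2 arrays, both from day 4, with 4.36 as its highest. Adamts1 and Adamts5 lie side by side with 0 protein-coding genes between them, as do Adamts15 and Adamts8. Their time courses were not alike: Adamts5 was highest at day 4 (10.07 ± 0.35) and Adamts1 at day 7 (9.04 ± 0.10, SD, n = 3 each), while Adamts15 reached 5.74 ± 0.13 at day 4 and Adamts8 stayed below 2.67 on every array. Furin, the convertase known to activate Mmp11 and Mmp14, differed by 0.45 at day 4 (SE 0.08, limma adjusted p = 0.0013) and by 0.09 at day 7 (adjusted p = 0.39) from untreated.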
